A study of Mus musculus with 10 samples.

Results

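The osteoclast coupling factors of osteoblasts were followed through differentiation in 8 genes, namely Tnfsf11 (RANKL), Tnfrsf11b (osteoprotegerin, OPG), Csf1, Il34, Il6, Sema3a, Ephb4 and Efnb2. They were chosen as known factors, with earlier results of these data known. They were taken from the deposited tables by Ensembl gene ID, and they are 8 of the 40620 genes counted. The filter on low counts was passed by 7 of the 8, Tnfsf11 being the exception. RNA had been sequenced from MC3T3-E1 cells, a mouse calvarial pre-osteoblast line of which subclone 4 was used, at 5 stages with 2 samples each, named A and B. Subconfluent and confluent (day 0) cells were kept in growth medium, αMEM with serum. The 24 h, 14 d and 21 d cells had the same medium with ascorbic acid at 50 µg/ml and β-glycerophosphate at 10 mM, called osteogenic medium. All 10 samples come from 1 clonal line. No culture stayed in growth medium until 14 d or 21 d, so time, cell density and medium cannot be told apart.

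Osteoclasts are the bone-resorbing cells that form from macrophage precursors, and osteoblasts and stromal cells control their formation. RANKL binds its receptor RANK on the precursors and drives them towards osteoclasts, OPG is a secreted decoy receptor that captures RANKL, and the cytokines CSF1 and IL-34 keep the precursors alive through a shared receptor, CSF1R. IL-6 signals through gp130 and can raise RANKL in stromal cells, semaphorin 3A is secreted and restrains osteoclast formation, and the receptor EphB4 on osteoblasts meets the ligand ephrin-B2 on osteoclasts and on osteoblasts themselves.

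Between 44736156 and 162939333 reads were counted on genes per sample. Levels are given as RPKM, read counts scaled to gene length and library size, which allows genes of different length to be set side by side. By their index sequences the subconfluent, confluent and 24 h libraries form one set and the 14 d and 21 d libraries another, so a change between these sets cannot be told apart from a difference between the sets of libraries. The 24 h samples differed from each other more than the samples of any other stage did (chi-square per degree of freedom over genes 448.3, against 28.67 to 56.97). Results that involve 24 h cells are therefore also given without 24 h replicate A where that changed a call. Which of the 2 samples was the odd one was not tested. The labels call the cells osteoblasts, and 8 of 8 osteoblast markers exceeded 1 RPKM in some sample, led by Col1a1 (3788 to 10422 RPKM), and Ibsp ran from 11.8 RPKM in the lowest sample to 4374 in the highest. Of 10 osteoclast markers 4 exceeded 1 RPKM, led by Ctsk (76.9 to 179.7 RPKM), while Calcr and Dcstamp had 0 reads and Acp5 had 8 reads in all 10 samples. Their summed level ran from 91.2 to 91.5 RPKM in subconfluent cells and from 180.9 to 195.8 at 21 d. Ctsk made up most of this sum, since Mmp9, Nfatc1 and Itgb3 reached at most 9.56, 7.49 and 6.32 RPKM. Of 8 macrophage markers 4 exceeded 1 RPKM, led by Lyz2 (9.81 to 16.1 RPKM), and Ptprc had 0 reads and Adgre1 had 1. The macrophage sum was 20.5 to 22.0 RPKM in subconfluent cells and 27.3 to 28.9 at 21 d. Of 6 adipocyte markers 2 exceeded 1 RPKM, led by Cebpa (2.67 to 6.66 RPKM), and their sum ran from 2.83 RPKM in the lowest subconfluent sample to 6.87 in the highest 24 h sample. Of 5 endothelial markers, led by Pecam1 (at most 0.0558 RPKM), 0 exceeded it, and their sum was at most 0.107 RPKM. The part of these sums in the results was not tested.

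Tnfsf11 (chromosome 14, 78277445-78308043, minus strand in GRCm38) was at the limit of counting at every stage. In subconfluent cells 1 read was counted in replicate A and 0 in B, in confluent cells 0 in both, at 24 h 1 and 0, at 14 d 1 and 0, and at 21 d 0 and 2. No stage stood out, and each of the 5 stages had a sample with 0 reads. The 5 reads have an exact Poisson 95% interval of 1.62 to 11.7 reads for the sum. The limit that a count of 0 allows, taken as 3 reads, lay between 0.0125 and 0.0434 RPKM in the single libraries. A count of 0 therefore leaves room for a level up to that limit. It is not a floor of detection, since the 1 read of subconfluent replicate A stood for 0.00435 RPKM. The intervals cover counting error only. In a fit without the filter on low counts Tnfsf11 differed in none of the 6 comparisons (edgeR quasi-likelihood test, lowest unadjusted p 0.321, Benjamini-Hochberg adjusted p 0.577), and its F test over the stages gave an adjusted p of 0.851. DESeq2 gave unadjusted p-values of 0.744 or more in the 6 comparisons.

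Promoter sequence upstream of the start site was available for 6 of the 8 genes in the RefSeq table (GRCm38.p6), and Tnfrsf11b and Il34 were not in it. The 250 bases before the start site are shown for 3 of them, Tnfsf11 because almost no transcript was counted, and Csf1 and Efnb2 because both rose between 14 d and 21 d. Capitals mark matches to the TATA box (TATAAA, or TTTATA on the other strand) and the GC box (GGGCGG or CCGCCC):
Tnfsf11, chr14:78308044-78308293, minus strand: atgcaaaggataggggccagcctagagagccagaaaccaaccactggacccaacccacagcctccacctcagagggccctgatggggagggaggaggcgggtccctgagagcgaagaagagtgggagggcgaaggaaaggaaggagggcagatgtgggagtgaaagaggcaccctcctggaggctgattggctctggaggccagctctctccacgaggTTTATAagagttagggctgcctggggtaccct
Csf1, chr3:107760470-107760719, minus strand: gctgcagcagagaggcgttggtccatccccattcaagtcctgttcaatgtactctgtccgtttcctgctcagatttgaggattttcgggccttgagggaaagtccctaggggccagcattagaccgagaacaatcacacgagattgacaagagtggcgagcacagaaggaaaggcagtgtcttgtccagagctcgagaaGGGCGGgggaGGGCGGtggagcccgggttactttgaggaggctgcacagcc
Efnb2, chr8:8661243-8661492, minus strand: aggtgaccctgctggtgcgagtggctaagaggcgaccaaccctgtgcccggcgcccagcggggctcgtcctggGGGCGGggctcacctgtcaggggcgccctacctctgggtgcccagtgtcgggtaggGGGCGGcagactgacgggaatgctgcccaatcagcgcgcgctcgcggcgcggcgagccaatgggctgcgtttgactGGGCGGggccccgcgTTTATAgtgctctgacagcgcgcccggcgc
The Tnfsf11 window holds 1 TATA box match, which begins 32 bases before the start site and is on the opposite strand, and no GC box match. The Csf1 window holds 2 GC box matches, 51 and 41 bases before the start, and no TATA box match. Efnb2 has 3 GC box matches and 1 TATA box match, which begins 30 bases before the start site and is also on the opposite strand. Only the exact letters TATAAA were searched for on either strand, so the strand of a match does not show which way such an element faces. Among all 32851 windows of this length in the table, 12.4% held a TATA box match and 32.7% a GC box match. The 3 windows also differ in CpG dinucleotides, with 4 in Tnfsf11, 10 in Csf1 and 27 in Efnb2, beside a median of 6.0 over all windows. A match to RUNX (TGTGGT or its complement), found in 14.0% of all windows, occurred in 1 of the 6, Sema3a, whose RefSeq window (chr5:13396534-13396783, plus strand) lies inside the gene as GENCODE annotates it and not before the gene's start. A match to AP-1 (TGANTCA), found in 6.7%, occurred in 1, Il6, 249 bases before its start. These matches are descriptions of letters and do not show that a factor bound there.

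A gene was called changed between stages where its adjusted p was under 0.05 and it differed by over 2-fold, in a fit of all 10 samples. Of the 7 genes tested, 5 differed among the stages by the F test (Tnfrsf11b, Csf1, Il34, Sema3a and Efnb2), where 48.9% of all 20808 genes tested did. Ephb4 (adjusted p = 0.348) and Il6 (adjusted p = 0.11) did not pass. From subconfluent to confluent cells 0 of the 7 were called higher and 1 lower (Csf1), beside 1.0% and 0.423% of all genes. From confluent cells to 24 h 1 was called higher (Il34) and 0 lower, beside 1.76% and 0.365%. From 24 h to 14 d 2 were called higher (Tnfrsf11b and Il34) and 0 lower, beside 4.47% and 1.51%. From 14 d to 21 d 2 were called higher (Csf1 and Efnb2) and 1 lower (Tnfrsf11b), beside 1.52% and 2.45%. Between confluent cells and 14 d 2 were called higher (Tnfrsf11b and Il34) and 1 lower (Efnb2), beside 9.15% and 3.85%. Between subconfluent cells and 21 d 1 was called higher (Il34) and 0 lower, beside 16.3% and 11.3%. The median log2 change of the 7 genes was -0.13, -0.22, -0.02, 0.36, -0.24 and 0.03 in these 6 comparisons in turn, where that of all genes lay between -0.03 and 0.04. The median of 0.36 from 14 d to 21 d is the value of Il6, which was not called (adjusted p = 0.847). In these bulk samples fewer cells that express a gene and less RNA per cell cannot be told apart.

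**Figure D1:**
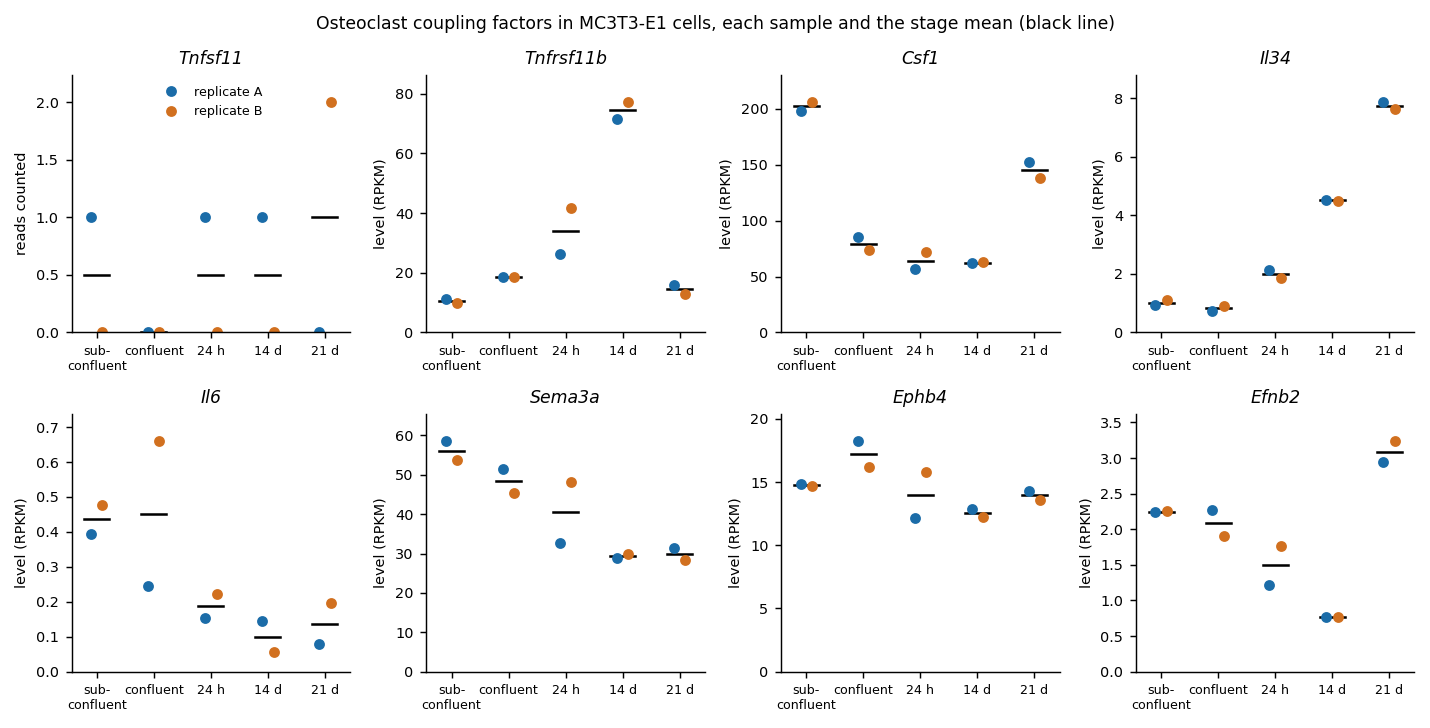
Level of each of the 8 genes in each sample (points, replicates A and B) with the mean of the stage (black line) in RPKM, or in reads counted for Tnfsf11. Tnfrsf11b peaked at 14 d, Csf1 was highest in subconfluent cells and at 21 d, Il34 was highest at 21 d, Sema3a was lowest at 14 d and 21 d, and Efnb2 was lowest at 14 d.

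Tnfrsf11b, the OPG gene (chromosome 15, 54250619-54278484, minus strand), rose to a peak at 14 d and then fell. Its level was 11.1 and 9.90 RPKM in the subconfluent samples, 18.7 and 18.4 in the confluent samples and 26.3 and 41.6 at 24 h. It was 71.6 and 77.1 RPKM at 14 d and 15.8 and 13.0 at 21 d. The samples of no 2 neighbouring stages in the order 14 d, 24 h, confluent, 21 d and subconfluent overlapped, and both 14 d samples stood above all others. The rise from 24 h to 14 d was 2.41-fold (log2 1.27 ± 0.19 SE, adjusted p = 0.00565 by the edgeR quasi-likelihood test), and from confluent cells to 14 d it was 4.66-fold (log2 2.22 ± 0.19, adjusted p = 0.000278). From 14 d to 21 d OPG transcripts fell 5.44-fold (log2 -2.44 ± 0.20, adjusted p = 0.000627), the largest fitted change of any of the 7 genes between successive stages, and a comparison within 1 set of libraries. The mean at 21 d lay between those of subconfluent and confluent cells, at 1.49 times that of subconfluent cells (log2 0.57 ± 0.19, adjusted p = 0.0365), short of the 2-fold threshold. The step from confluent cells to 24 h was 1.93-fold (log2 0.95 ± 0.19, adjusted p = 0.0335), also short of it. Without 24 h replicate A, the lower of the 24 h samples, that step was log2 1.21, which is over 2-fold. Without 24 h replicate B it was log2 0.66, further short of 2-fold. Its adjusted p was under 0.05 in 8 of 22 alternatives, so the step depended on the processing. The rise from 24 h to 14 d was log2 1.01 without replicate A and 1.53 without replicate B.

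The ratio of Tnfsf11 to Tnfrsf11b, per length, rests on these few RANKL reads. Over all 10 samples 5 Tnfsf11 reads stood against 56729 Tnfrsf11b reads, a ratio of 0.000111 with an exact 95% interval of 3.61e-05 to 0.000259. Pooled over both samples of a stage, the ratio was 0.00031 in subconfluent cells (interval 7.84e-06 to 0.00173) and 0 in confluent cells (upper bound 0.000631). It was 8.12e-05 at 24 h (2.06e-06 to 0.000453), 4.99e-05 at 14 d (1.26e-06 to 0.000278) and 0.000564 at 21 d (6.82e-05 to 0.00204). The intervals of all 5 stages overlap, and the upper bound was lowest at 14 d, where OPG was highest. For a test 0.5 read was added to both genes, since 6 samples had no Tnfsf11 read. The log2 ratio did not pass an exact permutation test of its F statistic over all ways of splitting the samples into 5 pairs (p = 0.103, adjusted over 3 ratios 0.103, smallest possible p 0.00106). At 0 to 2 Tnfsf11 reads a sample the ratio moves with the OPG level and the depth of the library, and no change in RANKL can be read from it.

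**Figure D2:**
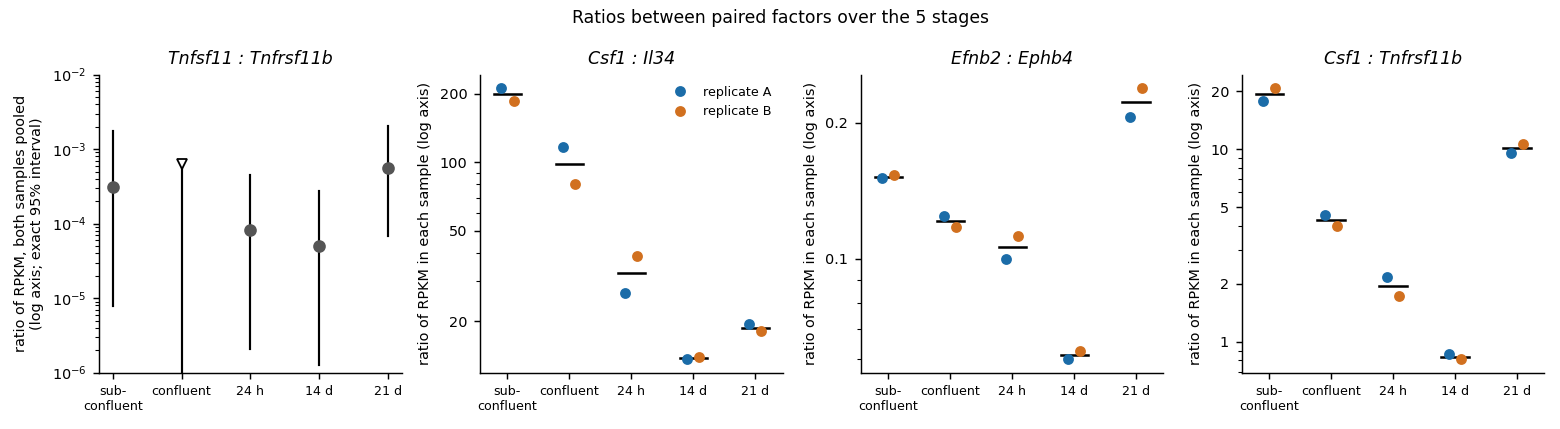
Ratios of RPKM between pairs of factors at the 5 stages, on log axes. Tnfsf11 to Tnfrsf11b is pooled over both samples with its exact 95% interval, which spans more than the differences between stages (triangle: upper bound at 0 reads, the line running off the axis), and the other 3 ratios are shown for each sample with the stage mean. Csf1 to Il34 fell from 199.5 to 13.8 between subconfluent cells and 14 d, and Efnb2 to Ephb4 and Csf1 to Tnfrsf11b were lowest at 14 d.

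Csf1 (chromosome 3, 107741048-107760469, minus strand) was the most abundant of the 8 genes per length in 8 of the 10 samples, those other than the 14 d samples, where Tnfrsf11b was higher. It encodes the cytokine on which macrophages and osteoclast precursors depend. Its level was 198.5 and 206.0 RPKM in subconfluent cells, 85.5 and 73.4 in confluent cells, 56.8 and 71.6 at 24 h, 61.7 and 62.6 at 14 d, and 152.4 and 137.8 at 21 d. The course was thus high, low and high again, and only the 24 h and 14 d samples overlapped among neighbours in the order of levels. Between subconfluent and confluent cells Csf1 fell 2.59-fold (log2 -1.37 ± 0.12, adjusted p = 0.00237). It stayed within 1.17-fold between confluent cells and 24 h (adjusted p = 0.31) and differed 1.06-fold between 24 h and 14 d (adjusted p = 0.68). From 14 d to 21 d it rose 2.22-fold (log2 1.15 ± 0.12, adjusted p = 0.00157), within 1 set of libraries. The 21 d level was 0.778 of the subconfluent level (log2 -0.36 ± 0.12, adjusted p = 0.0391), short of the 2-fold threshold. When the subconfluent, confluent and 24 h libraries were fitted alone, the fall at confluence was log2 -1.37 with an adjusted p of 0.0634.

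Il34 (chromosome 8, 110741829-110805924, minus strand), the gene of the other CSF1R ligand, was far lower than Csf1 and rose into 24 h and into 14 d. Its level was 0.936 and 1.10 RPKM in subconfluent cells, 0.731 and 0.912 in confluent cells, 2.14 and 1.84 at 24 h, 4.53 and 4.49 at 14 d, and 7.86 and 7.62 at 21 d. No neighbouring stages overlapped. The change between subconfluent and confluent cells did not pass (log2 -0.32 ± 0.18, adjusted p = 0.479). The rise was 2.57-fold by 24 h (log2 1.36 ± 0.18, adjusted p = 0.00752) and a further 2.46-fold by 14 d (log2 1.30 ± 0.17, adjusted p = 0.0038). It was 1.63-fold from 14 d to 21 d (log2 0.70 ± 0.17, adjusted p = 0.0428), short of 2-fold. With the replicate block its adjusted p was 0.0818, and without any one 14 d or 21 d sample it was 0.19 to 0.222. Between subconfluent cells and 21 d the difference was 8.26-fold (log2 3.05 ± 0.18, adjusted p = 1.8e-05), and between confluent cells and 14 d 6.33-fold (log2 2.66 ± 0.18, adjusted p = 0.000101). The call at 24 h was lost without confluent replicate A (log2 1.22, adjusted p = 0.0643) and in a fit of the first 3 stages alone (adjusted p = 0.116). Without 24 h replicate A it held (log2 1.19, adjusted p = 0.00942). The exons of Il34 share 75 bases with Gm15895, which had 0 reads, and 22 bases with Gm15894, which had 178 reads beside 3902 of Il34, both on the opposite strand. Reads in these bases could belong to either gene, since the use of strand in counting is not given in the sources used here.

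The balance of the CSF1R ligands therefore moved over the stages. Csf1 to Il34 was 212.2 and 186.8 in the subconfluent samples, 116.8 and 80.5 in the confluent samples, 26.6 and 38.9 at 24 h, 13.6 and 13.9 at 14 d, and 19.4 and 18.1 at 21 d. The samples of the 5 stages did not overlap. The log2 ratio differed among stages in the exact permutation test (p = 0.00106, adjusted p = 0.00159), the smallest p that the arrangements allow. Csf1 remained the more abundant transcript in all 10 samples. A single pair of stages cannot be tested in this way, because an exact test of 2 against 2 samples cannot go below p = 0.333. From 14 d to 21 d Csf1 was called higher and Tnfrsf11b lower. Their ratio, which was looked at after their levels had been seen and was not tested, was 19.4 in subconfluent cells, 4.28 in confluent cells, 1.94 at 24 h, 0.837 at 14 d and 10.1 at 21 d.

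Il6 (chromosome 5, 30013114-30019981, plus strand), a cytokine that acts on stromal cells and osteoclast precursors, was counted at 2 to 77 reads a sample. Its level was 0.395 and 0.477 RPKM in subconfluent cells, 0.245 and 0.659 in confluent cells, 0.152 and 0.222 at 24 h, 0.144 and 0.056 at 14 d, and 0.0792 and 0.196 at 21 d. All 4 samples in growth medium were above the 6 in osteogenic medium, yet the confluent samples differed from each other more than the stage means did. None of the 6 comparisons passed, the nearest being 14 d against confluent cells (log2 -1.89 ± 0.67, adjusted p = 0.0681), which cannot be told apart from the sets of libraries. That comparison was called with library size alone (log2 -2.10, adjusted p = 0.0468) and with limma on log2(RPKM + 0.1) (log2 -1.39, adjusted p = 0.0462).

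Sema3a (chromosome 5, 13125414-13602565, plus strand), whose product protects bone by restraining osteoclasts, declined gradually. Its level was 58.5 and 53.9 RPKM in subconfluent cells, 51.5 and 45.5 in confluent cells, 32.6 and 48.2 at 24 h, 28.9 and 30.0 at 14 d, and 31.5 and 28.4 at 21 d. The confluent and 24 h samples overlapped, as did those of 14 d and 21 d, and all 4 late samples were below the 6 earlier ones. The F test over the stages gave an adjusted p of 0.0165, and it was lost without subconfluent replicate A, 14 d replicate A or 21 d replicate B (highest adjusted p over alternatives 0.063). No comparison exceeded 2-fold. The difference of 21 d from subconfluent cells was 1.73-fold lower (log2 -0.79 ± 0.16, adjusted p = 0.0048), and that of 14 d from confluent cells 1.42-fold lower (log2 -0.50 ± 0.16, adjusted p = 0.0469). The largest log2 change of Sema3a between successive stages was -0.32 ± 0.16, from 24 h to 14 d (adjusted p = 0.213). It was -0.54 without 24 h replicate A, and ran from -0.54 to -0.12 over the alternatives.

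Ephb4 (chromosome 5, 137350109-137378669, plus strand), the receptor, varied little, whereas Efnb2 (chromosome 8, 8617434-8661242, minus strand), its ligand, fell and rose again. Ephb4 was 14.8 and 14.7 RPKM in subconfluent cells, 18.2 and 16.2 in confluent cells, 12.1 and 15.8 at 24 h, 12.9 and 12.2 at 14 d, and 14.3 and 13.5 at 21 d. The range over all samples, from 12.1 to 18.2 RPKM, was covered in part by the spread between the 24 h samples, and no comparison passed (lowest adjusted p 0.138). The largest log2 difference of Ephb4 was -0.24 ± 0.11, for 14 d against confluent cells. Without any 24 h samples, and without 24 h replicate B alone, Ephb4 passed the F test over the stages, and its lowest adjusted p over the alternatives was 0.0293. Ephb4 exons share 33 bases with Zan on the opposite strand, which had 110 reads beside 45472.

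Efnb2 was 2.24 and 2.26 RPKM in subconfluent cells, 2.27 and 1.90 in confluent cells, 1.21 and 1.77 at 24 h, 0.772 and 0.765 at 14 d, and 2.95 and 3.23 at 21 d. Both 14 d samples were the lowest and both 21 d samples the highest, and of neighbouring stages only the subconfluent and confluent samples overlapped. Efnb2 fell 2.33-fold between confluent cells and 14 d (log2 -1.22 ± 0.17, adjusted p = 0.00204; under 2-fold with limma on log2(RPKM + 1), at log2 -0.80), and rose 3.82-fold from 14 d to 21 d (log2 1.94 ± 0.18, adjusted p = 0.0009), within 1 set of libraries. The step from 24 h to 14 d was log2 -0.82 ± 0.17 (adjusted p = 0.0193), short of 2-fold. It was log2 -1.03 without 24 h replicate A, which is over 2-fold, and ran from -1.03 to -0.49 over the alternatives. Efnb2 to Ephb4 was 0.151 and 0.153 in the subconfluent samples, 0.125 and 0.118 in the confluent samples and 0.1 and 0.112 at 24 h. It was 0.06 and 0.0625 at 14 d and 0.206 and 0.239 at 21 d. No stages overlapped in this ratio, and it differed among them in the exact permutation test (p = 0.00106, adjusted p = 0.00159).

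**Figure D3:**
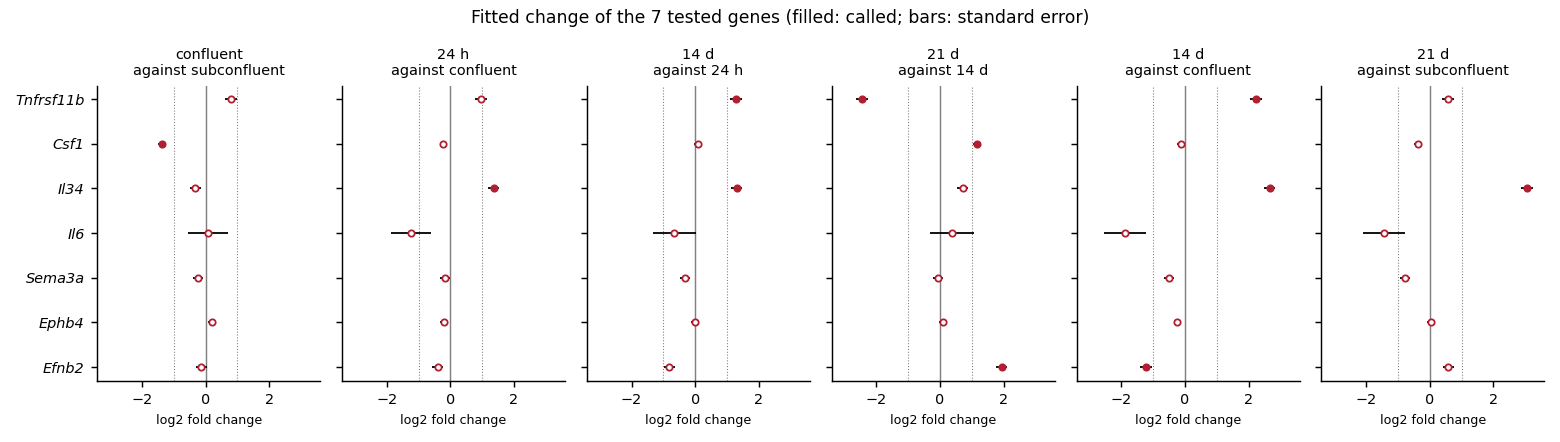
Fitted log2 fold change of the 7 tested genes in the 6 comparisons (points, filled where called), with standard errors as bars, most of which are shorter than the point except for Il6, and dotted lines at 2-fold. From 14 d to 21 d Tnfrsf11b fell (log2 -2.44) while Csf1 (1.15) and Efnb2 (1.94) rose, and Il34 had the largest difference between subconfluent cells and 21 d (3.05).

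From 14 d to 21 d 2 of the 7 tested genes were called higher and 1 lower, beside 1.52% and 2.45% of all genes. Tnfrsf11b was called higher into 14 d and lower out of it, Efnb2 lower into it relative to confluent cells and higher out of it, and Csf1 lower at confluence and higher after 14 d. Comparisons that share 14 d samples are not independent of each other. Across the 10 samples log2 CPM of Tnfrsf11b correlated with that of Efnb2 at r = -0.85 and with that of Csf1 at r = -0.75, and Csf1 with Efnb2 at r = 0.70, as a description of 5 pairs of samples that share stages. Among the 15100 genes that averaged 1 CPM or more, the courses most like that of Tnfrsf11b were those of 6330403L08Rik (r = 0.979), Cgnl1 (0.978) and Pfkfb4 (0.975). Those most like Csf1 were Timp3, an inhibitor of metalloproteinases (r = 0.981, 80.6 RPKM in subconfluent cells, 21.0 at 14 d and 64.1 at 21 d), Hmga2 (0.974) and the gp130 cytokine Clcf1 (0.968). The nearest to Sema3a were Gng12 (0.991), Twistnb (0.989) and Thbd (0.987), and to Il6 Mtmr14 (0.940), Cep78 (0.938) and Mir6909 (0.920).

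Of the receptors through which these factors act on osteoclast precursors, Tnfrsf11a (RANK) had 1 read in all 10 samples. Csf1r was present at 1.83 to 3.19 RPKM and did not pass the F test (adjusted p = 0.299). Around the 8 genes, 57 further genes of the same pathways were counted, of which 46 passed the filter and 33 the F test, beside 48.9% of all genes. Between subconfluent cells and 21 d 15 of the 46 were called higher and 8 lower, beside 16.3% and 11.3% of all genes. Between confluent cells and 14 d the numbers were 12 and 6 (9.15% and 3.85% of all genes). From subconfluent to confluent cells 3 were called higher and 2 lower (1.0% and 0.423%), from confluent cells to 24 h 1 and 1 (1.76% and 0.365%), and from 24 h to 14 d 7 and 3 (4.47% and 1.51%). From 14 d to 21 d 3 were called higher (Ptgs2, Osmr and Wnt5a, named after their values were seen) and 0 lower (1.52% and 2.45%). The median log2 change of the 46 between subconfluent cells and 21 d was 0.12, beside 0.04 over all genes.

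Of 7 tested genes of hormone and prostaglandin signalling to RANKL and OPG, 1 was called higher and 3 lower at 21 d than in subconfluent cells, where 16.3% and 11.3% of all genes were. Pth1r, the parathyroid hormone receptor, was 41.2 and 41.2 RPKM in subconfluent cells, 115.2 and 141.9 in confluent cells, 375.6 and 395.6 at 14 d and 280.8 and 282.9 at 21 d. It was higher in every osteogenic sample than in any sample in growth medium (21 d against subconfluent log2 2.89 ± 0.15, adjusted p = 1.12e-05). Vdr, the vitamin D receptor, fell from a mean of 14.9 RPKM to 5.41 (log2 -1.34 ± 0.17, adjusted p = 0.000534). Ptgs2, the inducible cyclooxygenase of prostaglandin synthesis, followed a course with a low at 14 d, with means of 4.09, 2.94, 1.38, 0.389 and 1.49 RPKM over the 5 stages, and rose from 14 d to 21 d (log2 1.87 ± 0.33, adjusted p = 0.0133). Of 4 tested genes of RANKL shedding and its other receptor Lgr4, 0 were called in any of the 6 comparisons, and 1 passed the F test. Of all genes 48.9% passed it, and 0.365% to 16.3% were called in a given direction and comparison. With 4 genes, 0 calls cannot be set apart from these shares.

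Of 10 tested genes of the gp130 group to which IL-6 belongs, 3 were called higher and 1 lower at 21 d than in subconfluent cells, beside 16.3% and 11.3% of all genes. Il6ra, the IL-6 receptor, went from 0.711 and 0.784 RPKM to 1.91 and 1.85 (log2 1.45 ± 0.40, adjusted p = 0.02). Il11ra1, the IL-11 receptor, went from 14.9 and 15.4 RPKM to 37.2 and 44.9 (log2 1.56 ± 0.30, adjusted p = 0.00373). For both receptors the 21 d samples stood above the subconfluent ones, and at 24 h Il6ra was 0.568 in replicate A and 1.52 in B. Il11ra1 was already 24.8 and 42.6 RPKM in confluent cells and 51.7 and 34.8 at 24 h, and both stages overlapped its 21 d samples.

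Of 13 tested semaphorins, plexins and neuropilins, 7 were called higher and 1 lower at 21 d than in subconfluent cells, beside 16.3% and 11.3% of all genes, with a median log2 change of 1.02, beside 0.04. Of the 6 tested relatives of Sema3a in the secreted class 3, Sema3b, Sema3c and Sema3g were called higher and Sema3e lower (log2 -3.38, adjusted p = 6.75e-05), while Sema3d (log2 0.18) and Sema3f (log2 0.13) were not called. Sema3b went from 4.29 and 3.63 RPKM in subconfluent cells to 25.1 and 24.0 at 14 d and 19.8 and 18.0 at 21 d (21 d against subconfluent log2 2.37 ± 0.12, adjusted p = 9e-06). Sema3g (log2 2.89 ± 0.17, adjusted p = 1.71e-05) and Sema3c (log2 1.89 ± 0.26, adjusted p = 0.000751) rose as well, from means of 0.272 and 0.422 RPKM to 1.86 and 1.45. At 21 d Sema3a, at a mean of 29.9 RPKM, remained more abundant per length than Sema3b at 18.9. Of 5 other EphB and ephrin-B genes tested, 1 was called higher and 1 lower, beside the same shares. Ephb6 was called higher at 21 d (3.35 and 3.57 RPKM against 14.5 and 14.4, log2 2.18 ± 0.11, adjusted p = 9.54e-06). Ephb2 was called lower (4.42 and 4.44 RPKM against 1.30 and 1.17, log2 -1.73 ± 0.14, adjusted p = 5.83e-05).

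Of 6 tested osteoblast factors of other families, 3 were called higher and 2 lower at 21 d than in subconfluent cells (all genes 16.3% and 11.3%). Tgfb1, a growth factor stored in bone matrix, rose from a mean of 21.8 RPKM to 56.8 (adjusted p = 2.09e-05), with a rise of log2 1.39 ± 0.09 between confluent cells and 14 d (adjusted p = 9.62e-05). The chemokines Ccl2, which attracts monocytes, and Cxcl12 fell, Ccl2 from 3.87 to 1.18 RPKM (log2 -1.60 ± 0.22, adjusted p = 0.000707) and Cxcl12 from 52.4 to 18.4 (log2 -1.39 ± 0.09, adjusted p = 2.03e-05). Cxcl12 had already fallen at confluence (log2 -1.06 ± 0.09, adjusted p = 0.00168), in the same comparison as Csf1. The difference of 21 d from subconfluent cells in this and the preceding groups spans both sets of libraries.

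**Figure D4:**
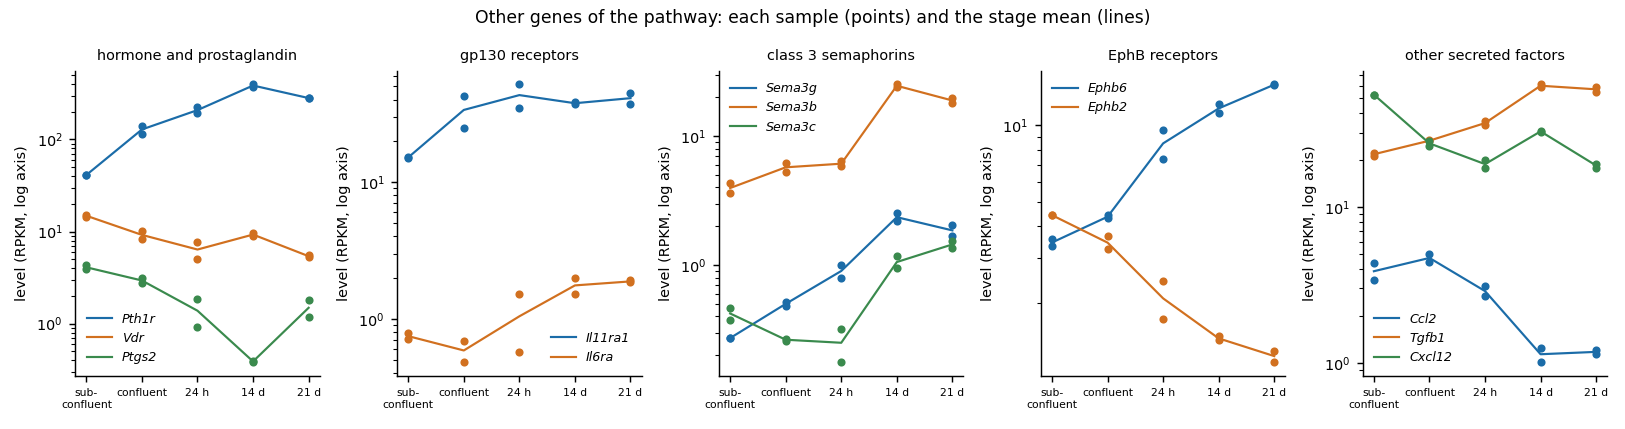
Levels of 13 further genes of the same pathways in RPKM on log axes, each sample as a point and the stage mean as a line. Pth1r, Sema3b, Sema3g, Ephb6 and Tgfb1 were higher at 14 d and 21 d than in growth medium, and Vdr, Ephb2 and Ccl2 were lower at 21 d than in subconfluent cells.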

How the data were processed

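RNA of 10 MC3T3-E1 samples, 2 at each of 5 stages, was sequenced as paired reads of 51 bases. The authors deposited raw read counts per gene and RPKM values, counts scaled to gene length and to a number of reads that the total count exceeded 1.44 to 1.60 times. Per the submitters' processing notes FastQC, TopHat2 2.0.9 and R 3.0.1 were used with mm10; the counting tool and its use of strand are not given in the sources used here. For libraries sequenced in 2 lanes the merged column was used. Groups came from the sample labels. The genes and pathway lists were chosen with earlier results of these data known, and p-values measure the spread between the 2 samples of a stage, which may be technical.

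Symbols and coordinates of gene IDs came from GENCODE vM21 (GRCm38). Counts were fitted in edgeR 4.0.16 (R 4.3.3) with filterByExpr (20808 genes kept), TMM factors and a quasi-likelihood model of 5 groups, with Benjamini-Hochberg adjustment over all genes tested. A standard error is the size of a log2 change over the root of its F statistic. Ratios were tested by exact permutation, and the scripts were tested on simulated data. Replicate letters did not pair samples (correlations of A minus B between stages -0.184 to 0.0995). The genes named from each pathway list are up to 3 with the largest change among those called between subconfluent cells and 21 d that reached 1 RPKM at a stage, with Tnfrsf11a and Csf1r; of each marker list the most abundant members are named, and the 3 likest genes of a member by Pearson's r of log2 CPM (prior count 2). Alternatives were DESeq2 1.42.0 and its size factors, upper-quartile factors, library size alone, no filter, a minimum of 10 counts per sample, limma 3.58.1 on log2(RPKM + 1) and log2(RPKM + 0.1), a replicate block, fewer stages, summed lanes, other thresholds and each sample left out.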

Additional observations from a re-analysis of the deposited data

How the results depend on the processing

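All alternative values of the 11 changes called kept direction, and 235 kept the call. With limma on log2(RPKM + 1) 3 kept the adjusted p but fell under 2-fold: Il34 at 24 h against confluent cells (log2 0.72) and at 14 d against 24 h (0.88), and Efnb2 at 14 d against confluent cells (-0.80). The adjusted p was lost in 6: Il34 at 24 h against confluent cells (without confluent replicate A, in the 2 groups alone, adjusted p = 0.303, and in stages sharing an index pair), Tnfrsf11b and Il34 at 14 d against 24 h in the 2 groups alone (adjusted p = 0.121 and 0.089), and Csf1 at confluence in stages sharing an index pair. So the number of the 8 genes called was 0 for confluent against subconfluent cells with index-pair stages only. For 24 h against confluent cells it was 0 with limma on log2(RPKM + 1), with the 2 groups alone (which called 0 genes in all) and with index-pair stages, 2 at any fold, and 0 to 2 with a sample left out. For 14 d against 24 h it was 1 with limma on log2(RPKM + 1) and 0 with the 2 groups alone, and for 21 d against subconfluent cells 5 at any fold. More of all genes also passed at any fold than the 16.3% and 11.3% called higher and lower in that comparison with the fold threshold. The counts at any fold therefore do not set the 8 genes apart from all genes. For 14 d against confluent cells Il6 was gained with library size alone and with limma on log2(RPKM + 0.1), making 4 genes. The Csf1 to Il34 and Efnb2 to Ephb4 ratios passed, and Tnfsf11 to Tnfrsf11b failed, under all 15 alternatives. The alternative without length correction shifts every log2 ratio by a constant, so its outcome was fixed in advance.

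Signs turned in 24 values, all of changes that were not called. Csf1 at 14 d against 24 h was log2 -0.023 with library size alone, -0.036 and -0.037 with limma on log2(RPKM + 1) and log2(RPKM + 0.1), and -0.029 to 0.16 with a sample left out. Il6 at confluence was -0.037 with the replicate block, -0.063 with limma on log2(RPKM + 0.1), and -0.85 to 0.58 with a sample left out; at 21 d against 14 d it was -0.50 to 1.25. Sema3a was -0.41 to 0.031 at 24 h against confluent cells; at 21 d against 14 d it was 0.014 with upper-quartile factors, 0.034 with library size alone, 0.021 with both limma fits, and -0.13 to 0.016 with a sample left out. Ephb4 at 14 d against 24 h was 0.0042 with upper-quartile factors, 0.0033 with at least 10 counts, and -0.16 to 0.077 with a sample left out; at 21 d against subconfluent cells it was -0.13 with library size alone, -0.080 and -0.085 with limma, and -0.017 to 0.064. The cause was not tested. With the replicate letter as a block the number of genes called stayed at 1, 1, 2, 3, 3 and 1 in the 6 comparisons (Csf1 at confluence adjusted p = 0.0104). The median log2 change of all genes was -0.20 with library size alone (14 d against confluent cells) and 0.17 with upper-quartile factors (21 d against subconfluent cells), beside 0.03 and 0.04 with TMM. Depth limits Tnfsf11 and Il6, at 0 to 2 and 2 to 77 reads.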

Other observations

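Further genes of the pathways, named after their values were seen, changed at other steps. Lif, a gp130 cytokine, was lower at 24 h than in confluent cells, with means of 0.521 and 2.11 RPKM (log2 -1.92, adjusted p = 0.00557 by the edgeR quasi-likelihood test), and its receptor Lifr was higher at 14 d than at 24 h, with means of 21.6 and 11 RPKM (log2 1.10, adjusted p = 0.000566). Osmr, the oncostatin M receptor, had a low at 14 d (1.16 RPKM, against 3.26 in confluent cells and 2.58 at 21 d) and rose from there to 21 d (log2 1.08, adjusted p = 0.0171). Sema3e, a class 3 semaphorin, was lower at 21 d than in subconfluent cells (0.0524 and 0.599 RPKM, log2 -3.38, adjusted p = 6.75e-05), against the direction of Sema3b, Sema3c and Sema3g. Wnt5a, a non-canonical Wnt that acts on osteoclast precursors, rose from 1.08 RPKM at 14 d to 2.78 at 21 d (log2 1.30, adjusted p = 0.00625), and Wnt4 was higher at 14 d (4.17 RPKM) than in confluent cells (1.85 RPKM, log2 1.39, adjusted p = 0.0011).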
